A study of Mus musculus with 24 samples.

Results

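The genes described here are 9 known transcriptional targets of bone morphogenetic protein (BMP) signalling: the inhibitors of DNA binding Id1, Id2, Id3 and Id4, the inhibitory Smads Smad6 and Smad7, the decoy receptor gene Bambi, and the transcription factor genes Atoh8 and Hey1. They were taken by symbol, and all 9 were found among the 55487 genes of the table. All 9 passed the filter on low counts in every comparison. The values that choose them are their names, not their levels.

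The data are bulk RNA sequencing of whole kidneys from male mice with XLAS (X-linked Alport syndrome, an inherited defect of the type IV collagen network of the glomerulus; the sample titles name the cross Nbl1 x Col4a5). Of the 24 mice, 13 were labelled HET and 11 WT for Nbl1, all on the B6 background with kidneys taken at 15 weeks of age. Batch 1 held 6 HET and 6 WT mice, and batch 2 held 7 HET and 5 WT mice; no source used here says what the batch label stands for. Both genotypes carry the disease, so HET against WT is a comparison within XLAS kidneys and holds no healthy control. The labels give neither the Nbl1 allele nor the cells in which it is altered.

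Nbl1 encodes a secreted protein of the DAN family that captures BMPs before they reach a receptor. BMPs bind pairs of type I and type II receptor kinases, which phosphorylate Smad1, Smad5 and Smad9; these join Smad4, enter the nucleus and bind GC-rich elements beside Smad boxes in their target genes. Id proteins lack a DNA-binding region and hold E proteins away from DNA, Smad6 and Smad7 feed back on the receptors, Bambi resembles a receptor without its kinase, Atoh8 is a BMP-responsive factor known from endothelium, and Hey1 is a repressor that answers to both Notch and BMP. In the kidney, BMP signalling is known for its part in nephron formation and in the control of fibrosis.

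Nbl1 itself was read first, as a check of the genotype labels. Levels are given as CPM, which are expected counts scaled to the library's total after that total was adjusted by TMM. In batch 1 the HET libraries held 3.86 to 9.24 CPM with a median of 4.16. The WT libraries of that batch held 3.62 to 7.78 CPM with a median of 7.19. In batch 2 the HET libraries held 4.22 to 7.82 CPM with a median of 4.95, and the WT libraries held 10.9, 9.76, 11.2, 15.1 and 7.0 CPM. The batch 2 groups overlapped in 1 WT and 1 HET library only, whereas the batch 1 groups overlapped widely. In batch 1, the levels of Nbl1 and of the neighbouring gene Htr6 went against the genotype label in 3 libraries. They were the library labelled HET replicate 6 (9.24 CPM of Nbl1, 0 counts of Htr6), the library labelled WT replicate 1 (5.41 CPM, 26 counts) and the library labelled WT replicate 2 (3.62 CPM, 14 counts). All 3 stay in their labelled groups below, and several results that rest on them are also given without these 3 doubted libraries.

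Promoter sequences are shown for 3 of the genes whose co-variation is described below: Smad6, which moved with Smad7, Atoh8, which followed Id1 and Id3 in batch 2, and Id4, which joined no called pair. They are the 250 bases before the RefSeq start on GRCm38.p6, 5′ to 3′ on the gene's strand, in lower case, with any GGCGCC (a core of the GC-rich BMP element) and any GTCT or its reverse complement AGAC (the Smad box) in capitals. RefSeq entries of this kind matched 5 of the 9 genes; those of Id2 and Id3 overlap annotated exons and are not printed.
Smad6, chr9:64022060-64022309, minus strand: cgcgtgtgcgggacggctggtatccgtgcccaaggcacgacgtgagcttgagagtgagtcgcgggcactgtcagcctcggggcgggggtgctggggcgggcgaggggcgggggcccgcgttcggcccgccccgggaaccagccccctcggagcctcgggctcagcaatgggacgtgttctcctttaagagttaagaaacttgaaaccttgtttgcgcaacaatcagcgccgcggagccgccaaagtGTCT
Atoh8, chr6:72235578-72235827, minus strand: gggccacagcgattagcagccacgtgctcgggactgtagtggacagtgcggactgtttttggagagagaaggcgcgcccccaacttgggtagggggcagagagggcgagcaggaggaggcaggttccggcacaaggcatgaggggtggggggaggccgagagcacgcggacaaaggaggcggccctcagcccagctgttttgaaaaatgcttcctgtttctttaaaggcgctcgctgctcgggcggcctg
Id4, chr13:48260866-48261115, plus strand: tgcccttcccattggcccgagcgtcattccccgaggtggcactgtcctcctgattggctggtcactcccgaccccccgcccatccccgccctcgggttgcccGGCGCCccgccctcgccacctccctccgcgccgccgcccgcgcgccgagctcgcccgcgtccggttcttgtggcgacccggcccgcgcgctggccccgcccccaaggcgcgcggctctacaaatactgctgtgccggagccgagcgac
The Id4 window held 1 GGCGCC, the Smad6 window held 1 GTCT at its very end, and the Atoh8 window held neither. Of 32851 promoter windows of the same length, 9.59% held GGCGCC and 82.9% held GTCT on either strand, so a Smad box in such a window is common. These are matches of letters only.

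The libraries held 29551543 to 33020033 expected counts in batch 1 and 36380502 to 50746817 in batch 2. The tissue label could be read from segment markers: all 8 proximal tubule markers, led by Kap, had counts in every library, and their summed level was 21146 to 27365 CPM. All 10 podocyte markers, led by Podxl, and all 15 endothelial markers, led by Plvap, also had counts in every library. In bulk tissue, fewer cells of a type and less RNA per cell cannot be told apart for any gene below.

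Levels per gene length were compared as TPM, which scales counts by gene length and by the library's sum, within each batch. Id2 was the most abundant of the 9 genes, at a median of 98.9 TPM in batch 1 and 204 TPM in batch 2. Its CPM barely differed between batches (log2 difference 0.03), so TPM was not compared across batches. Id3 came next, at 18.1 and 27.2 TPM. In batch 1 the range of Id2 (79.1 to 125) did not touch that of Id3 (12.1 to 25.8), while Id1, at 5.11 to 15.2, reached into that of Id3.

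Behind them in batch 1 stood Smad7 at 8.83 TPM and Id1 at 7.09, whose ranges overlapped; Smad7 was the higher in 7 of 12 libraries. In batch 2 this pair changed places, with Id1 at 12.5 and Smad7 at 10.1 TPM, and Id1 was the higher in 8 of 12 libraries. The order below was the same in both batches: Id4 (3.26 and 6.67 TPM), Smad6 (1.81 and 2.55), Atoh8 (0.695 and 1.65), Bambi (0.445 and 0.760) and Hey1 (0.310 and 0.685). Bambi and Hey1 overlapped in both batches, with Bambi higher in 10 of 12 libraries each time. The Id4 locus is overlapped on the opposite strand by A330033J07Rik, with at most 11.7 counts, and by Gm49291, with at most 85.6, against a mean of 645 counts for Id4; the strand setting of the counting is not given, so reads from these cannot be told apart from Id4 reads.

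The genes also differed in how far mice of one genotype and batch spread around their mean. Over both batches Id1 was the most variable, with a residual SD of 0.43 on the log2 scale, where counting error alone gives 0.09; in batch 2 Hey1 (0.44) and Atoh8 (0.41) stood above Id1 (0.40). Hey1 followed with 0.38, but its 12 to 60 counts per library give a counting error of 0.27, and in batch 1 the 2 values were 0.31 and 0.29. The spread of Id3 was 0.35 and that of Atoh8 0.33. Id2 and Smad7, with 4044 to 7267 and 595 to 1274 counts, were the tightest, at 0.17 each.

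**Figure D1:**
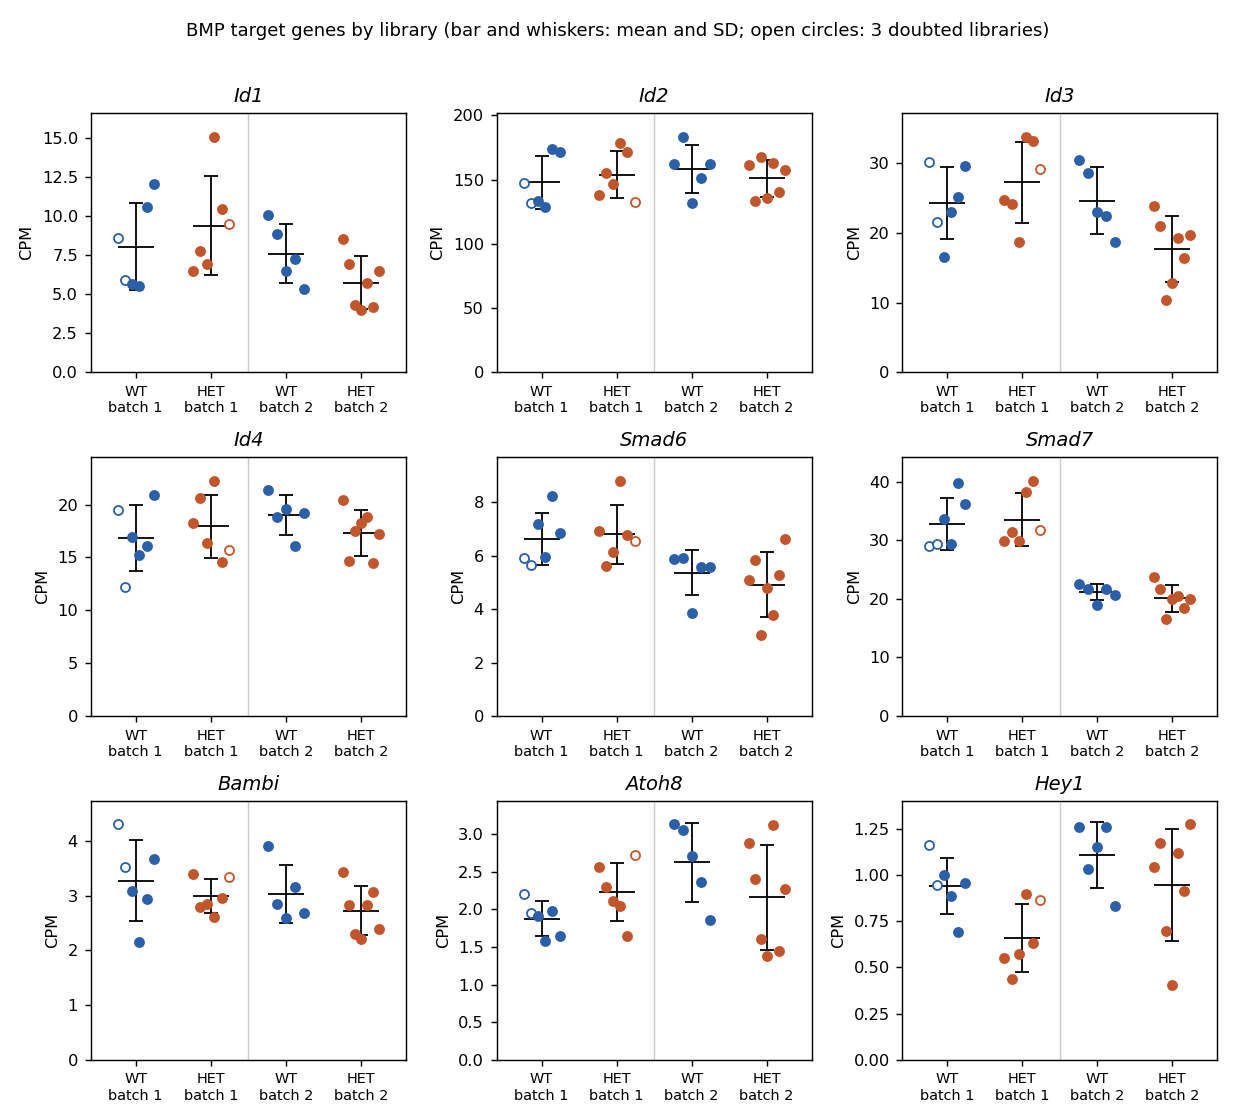
Level in CPM (y axis, linear, from 0) of the 9 genes in each library, by genotype and batch (x axis); each circle is 1 library, the bar and whiskers are the group mean and SD, and open circles are the 3 doubted libraries. The batch 2 HET libraries lie low for Id1 and Id3, the batch 1 HET libraries lie low for Hey1, and Smad7 is lower throughout batch 2.

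The comparison of HET with WT asks whether a lower dose of this BMP antagonist changes the kidney's BMP target genes. No target passed the test, over all mice or within a batch. Over all mice, 0 of the 9 genes were called (edgeR's quasi-likelihood test, adjusted p under 0.05; 0% of 18339 genes were called), and their adjusted p-values were all 0.997. All 9 log2 fold changes were negative, as were 43.7% of all genes, with a median of -0.04 for the 9 genes and 0.01 for all genes. At an unadjusted p under 0.05 stood 1 of the 9, Hey1, and 4.12% of all genes. DESeq2 and limma voom called none of the 9 either.

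The signs of these values were not the same in both batches. In batch 1, 0 of the 9 were called (0% of 18494 genes), 7 log2 fold changes were positive and 2 negative (50.6% of all genes were negative), and the median was 0.06. Hey1 alone of the 9 had an unadjusted p under 0.05 there, against 2.82% of all genes. In batch 2, 0 of the 9 were called (0.00557% of 17955 genes, which is Htr6 alone), all 9 log2 fold changes were negative against 49.9% of all genes, and the median was -0.17 against 0.00 for all genes. Id3 alone of the 9 had an unadjusted p under 0.05 in batch 2, against 8.28% of all genes. The 9 genes are not independent of each other, as their co-variation below shows. For every one of the 9 the HET and WT ranges overlapped in both batches; non-overlapping groups occurred for 0.0872% of genes in batch 1 and 0.551% in batch 2.

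Among the Id genes, Id3 (ENSMUSG00000007872, chromosome 4, 136143497 to 136145755, plus strand, GRCm38) showed the widest genotype difference in batch 2. The WT libraries held 30.4, 28.6, 23, 22.4 and 18.7 CPM, and the HET libraries ran from 10.4 through a median of 19.3 to 23.9. Of the 7 HET libraries, 6 lay below the WT median and 3 (HET 9, 10 and 12) below every WT library. The HET level was 71.0% of WT by the fitted fold change (log2 -0.49, SE 0.20, edgeR adjusted p = 0.594; exact two-sided permutation p = 0.0455). The exact p rose above 0.05 without any 1 of 7 libraries (HET 9, 10 and 12, WT 7, 8, 9 and 10), up to 0.106. Id3 lies 2936528 bases from Nbl1 on the same chromosome, and what the mice carry between them was not tested.

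In batch 1 Id3 did not follow that direction. Its HET libraries ran from 18.7 through 27.0 to 33.8 CPM and its WT libraries from 16.6 through 24 to 30.2, and 5 of 6 HET libraries lay above the WT median. The log2 fold change there was 0.16 (SE 0.18, adjusted p = 1.0; exact permutation p = 0.392).

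Id1 (ENSMUSG00000042745, chromosome 2, 152736251 to 152737410, plus strand) had the same form. In batch 2 its WT libraries held 10.1, 8.85, 6.48, 7.25 and 5.31 CPM, and its HET libraries ran from 3.99 through 5.71 to 8.55. Again 6 of 7 HET libraries lay below the WT median and 3 below all WT libraries. The 3 were HET 9, 10 and 12, as for Id3. The difference did not pass either test (log2 fold change -0.41, SE 0.21, edgeR adjusted p = 0.619, exact permutation p = 0.104). In batch 1 the HET libraries ran from 6.52 through 8.63 to 15.1 CPM and the WT libraries from 5.51 through 7.27 to 12, with a log2 fold change of 0.22 (SE 0.27). HET replicate 4 held the highest Id1 level of all 24 libraries.

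Id2 (chromosome 12, 25093799 to 25097140, minus strand) and Id4 (chromosome 13, 48261228 to 48266026, plus strand) had values close to 0. For Id2 the 95% interval of the log2 fold change over all mice was -0.14 to 0.13, or 91% to 109% of the WT level. For Id4 the interval was -0.19 to 0.15. In batch 2 their log2 fold changes were -0.08 and -0.15, with intervals of -0.25 to 0.08 and -0.33 to 0.03.

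The inhibitory Smads also stood near 0. Smad7 (chromosome 18, 75367529 to 75395935, plus strand) stood at a log2 fold change of -0.02 over all mice (interval -0.15 to 0.11), and Smad6 (chromosome 9, 63953076 to 64022059, minus strand) at -0.04 (-0.25 to 0.17). In batch 1 Smad7 ran from 29.9 through 31.5 to 40.2 CPM in HET and from 29.0 through 31.5 to 39.7 in WT, which are nearly the same ranges. Bambi (chromosome 18, 3507923 to 3516404, plus strand) stood at -0.14 over all mice (-0.35 to 0.06), at -0.13 in batch 1 and at -0.17 in batch 2. It was the one gene besides Hey1 with a negative value in both batches.

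Hey1 (ENSMUSG00000040289, chromosome 3, 8663359 to 8667256, minus strand) had its difference in batch 1. The HET libraries ran from 0.435 through 0.601 to 0.900 CPM and the WT libraries from 0.693 through 0.949 to 1.16. All 6 HET libraries lay below the WT median, 4 of them below every WT library, and 4 WT libraries lay above every HET library. The log2 fold change was -0.51 (SE 0.23, edgeR adjusted p = 1.0; exact permutation p = 0.0173). These are 14 to 29 counts against 21 to 38, and the spread between libraries of one group was near the counting error given above.

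In batch 2 the Hey1 libraries were spread wider in HET, from 0.402 through 1.04 to 1.28 CPM, than in WT (1.26, 1.03, 1.15, 1.26 and 0.833), and the log2 fold change was -0.23 (SE 0.23; exact permutation p = 0.354). Over both batches it was -0.36 (SE 0.16, interval -0.68 to -0.03, edgeR adjusted p = 0.997; exact permutation p of genotype within batch = 0.0172). Without the 3 doubted libraries the batch 1 difference in mean log2 CPM was -0.50 and its exact p was 0.0556. Of the 27 exact tests run on the 9 genes (each batch and both), 3 gave a p under 0.05: these 2 of Hey1 and that of Id3 in batch 2.

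Atoh8 (chromosome 6, 72206177 to 72235577, minus strand) had a positive value in batch 1 and a negative one in batch 2. In batch 1 its HET libraries ran from 1.64 through 2.21 to 2.72 CPM and its WT libraries from 1.58 through 1.93 to 2.20, and 5 of 6 HET libraries lay above the WT median (log2 fold change 0.25, SE 0.15; exact permutation p = 0.0887). In batch 2 the WT libraries held 3.13, 3.05, 2.71, 2.36 and 1.86 CPM and the HET libraries ran from 1.37 through 2.27 to 3.12 (-0.29, SE 0.21; exact permutation p = 0.216). In batch 2, 3 HET libraries lay below every WT library and the others among them. The 3 were again HET 9, 10 and 12, as for Id3 and Id1. Their summed level of mitochondrially encoded genes was 123959, 111854 and 103662 CPM, against at most 93732 in the other batch 2 HET libraries. WT 11, the lowest WT library of batch 2 for all 3 genes, held 108933 CPM, the highest of its group. Other marker lists set the same libraries apart. Summed macrophage markers stood at 387, 370 and 381 CPM in HET 9, 10 and 12, against 519 to 581 in the other batch 2 HET libraries. Summed fibroblast and interstitial collagen markers stood at 719, 723 and 910 CPM, against 966 to 984. WT 11 was the lowest of its group for both, at 384 and 713 CPM. In the marker test given below, run within genotype and batch over all libraries, none of Id1, Id3 and Atoh8 was called with any of these lists. Whether the low levels of HET 9, 10 and 12 go with these lists rather than with genotype was not tested.

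**Figure D2:**
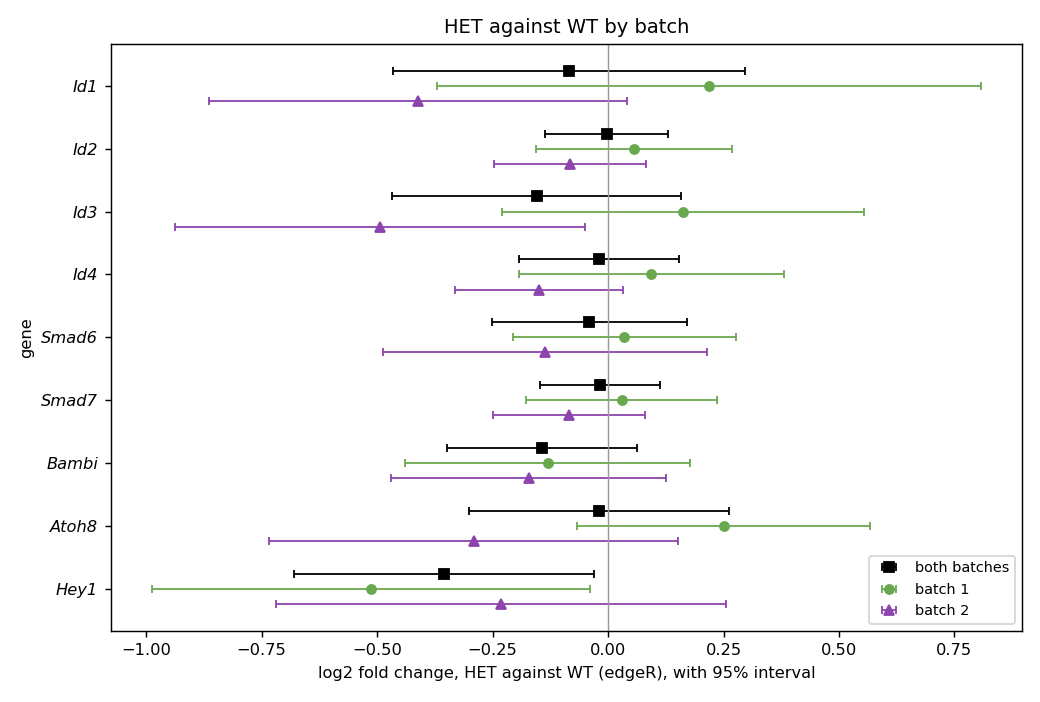
Log2 fold change of HET against WT (x axis) for each gene (y axis) with its 95% interval from edgeR, over both batches (squares), in batch 1 (circles) and in batch 2 (triangles). All batch 2 values lie left of 0, from -0.49 for Id3 to -0.08 for Id2, and 7 of the 9 batch 1 values lie right of 0.

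The difference between the batches was tested as an interaction. It was called for 0 of the 9 genes (0% of 18339 genes), with 8 of 9 values negative against 44.7% of all genes. Id3 had an interaction of -0.64 on the log2 scale (SE 0.27, interval -1.21 to -0.07; edgeR p = 0.0295 unadjusted, adjusted p = 0.594). It was the 1 gene of the 9 with an unadjusted p under 0.05, against 8.2% of all genes. The values for Id1 and Atoh8 were -0.62 and -0.53, with intervals that reached above 0 (up to 0.11 and 0.01).

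Batch itself separated several targets. Batch 2 against batch 1, with genotype in the model, called 3 of the 9 genes, where 63.5% of all 18339 genes were called, so a call is the usual outcome in this comparison. Smad7 fell by 0.69 on the log2 scale (SE 0.06, adjusted p = 1.59e-10): batch 1 libraries held 29.0 to 40.2 CPM and batch 2 libraries 16.5 to 23.8, without overlap. Smad6 fell by 0.39 (SE 0.10, adjusted p = 0.00149). Hey1 rose by 0.39 (SE 0.16, adjusted p = 0.0339), a call that was lost without any 1 of 9 libraries (HET 1, 2, 3, 5, 8, 11 and 13, WT 5 and 10).

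Id1 and Id3, at -0.42 and -0.33, did not pass the threshold in that comparison (adjusted p = 0.0532 and 0.0629). Id2, Id4, Bambi and Atoh8 lay between -0.12 and 0.20. The number of the 9 genes called for batch ran from 2 to 5 as each library was left out; it was 5 without HET 7, WT 3, WT 7 or WT 8.

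Within a genotype and batch, mice also differ in Nbl1, and the slope of each target on the log2 CPM of Nbl1 used those differences. None of the 9 slopes was called (0% of 18338 genes), and none had an unadjusted p under 0.05, against 11.2% of all genes. Of the 9 slopes, 7 were positive and 2 negative (55.3% of all genes were negative), with a median of 0.22 log2 units per log2 unit of Nbl1 against -0.01 for all genes. Id1 had the steepest slope at 0.41 (SE 0.23, adjusted p = 0.499), Id3 stood at 0.34 (SE 0.18, adjusted p = 0.484) and Smad6 at 0.24 (SE 0.13, adjusted p = 0.465). Id2 and Id4 were at -0.04 and -0.05. Without the 3 doubted libraries the Hey1 slope went from 0.28 to 0.71 (SE 0.30, adjusted p = 0.345). The slopes of the other targets without them are not given here.

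The targets varied together from mouse to mouse. Co-variation was measured on log2 CPM after the mean of each genotype in each batch was removed, over 24 libraries. The median Pearson r of the 36 pairs was 0.39 and 35 of them were positive, whereas over all pairs of genes with at least 1 CPM the median was 0.00 and 50.2% were positive. Of the 36 pairs, 6 passed a permutation test within genotype and batch (Benjamini-Hochberg over 36 pairs). They tie Id1 to Id3, Smad7 and Id2, Id3 to Smad7 and Hey1, and Smad6 to Smad7.

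Id1 and Id3 formed the tightest pair, with r = 0.83 (permutation p = 1e-05, the smallest that the permutations can give; adjusted p = 0.00036) and a Spearman rho of 0.81 (permutation p = 3e-05, adjusted p = 0.00108). It was 0.79 within batch 1 and 0.89 within batch 2, and 0.83 again without the 2 libraries farthest from the median of Id1. Among 15359 other genes of at least 1 CPM, no gene followed Id1 more closely than Id3, and Id1 ranked 5 among those that followed Id3. The other called pairs ranked lower, from 20 (Id1 for Smad7) to 319 (Hey1 for Id3), so many genes outside the 9 followed these targets more closely. For Id1 with Smad7, r was 0.75 (permutation p = 0.00018, adjusted p = 0.00324; rho 0.68, adjusted p = 0.0143), 0.74 and 0.77 within the batches and 0.71 without the 2 farthest libraries. For Smad6 with Smad7, the inhibitory pair, r was 0.64 (adjusted permutation p = 0.0150; rho 0.65, adjusted p = 0.0143), 0.76 and 0.62 within the batches and 0.52 without the 2 farthest. These 3 pairs kept their calls as each library was left out in turn and without the 3 doubted libraries. In batch 1, however, Id1, Id2 and Smad7 were highest in the same libraries, HET 4, HET 5, WT 5 and WT 6. There Id1 stood at 10.4 to 15.1 CPM (others at most 9.49), Id2 at 171 to 178 (at most 155) and Smad7 at 36.1 to 40.2 (at most 33.6). The batch 1 values of r among these genes set those libraries against the others, and r without all of them was not computed. The animal numbers in the titles of those libraries lie close together and apart from those of the other batch 1 libraries. The permutations within genotype and batch did not take this into account.

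The other called pairs held less evenly. For Id1 with Id2, r was 0.63 (adjusted permutation p = 0.0303; rho 0.59, adjusted p = 0.0531), but 0.86 in batch 1 and 0.30 in batch 2; the call was lost without HET 4, HET 7, WT 4 or WT 6. For Id3 with Smad7, r was 0.60 (adjusted p = 0.0328; rho 0.53, adjusted p = 0.0765), 0.45 and 0.80 within the batches, and the call was lost without any 1 of 9 libraries. For Id3 with Hey1, r was 0.60 (adjusted p = 0.0476; rho 0.60, adjusted p = 0.0380), 0.41 and 0.72 within the batches, and the call was lost without any 1 of 16 libraries. Without the 2 farthest libraries these 3 values were 0.52, 0.59 and 0.66. Without the 3 doubted libraries the calls of Id1 with Id2 (adjusted permutation p = 0.0609) and of Id3 with Hey1 (0.0890) were lost, and that of Id3 with Smad7 was kept (0.0112).

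For Atoh8 and Id2 the values differed between batches. Atoh8 followed Id1 with r = 0.86 and Id3 with r = 0.82 in batch 2, and stood at -0.19 and -0.15 in batch 1. Id2 followed Smad7 with r = 0.82 in batch 1, across the split of libraries given above, and 0.12 in batch 2. Whether r differs between batches was not tested. Id4 joined no called pair; its highest r was 0.44, with Id2, and its r with Smad6 and Hey1 was 0.02 and -0.01.

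**Figure D3:**
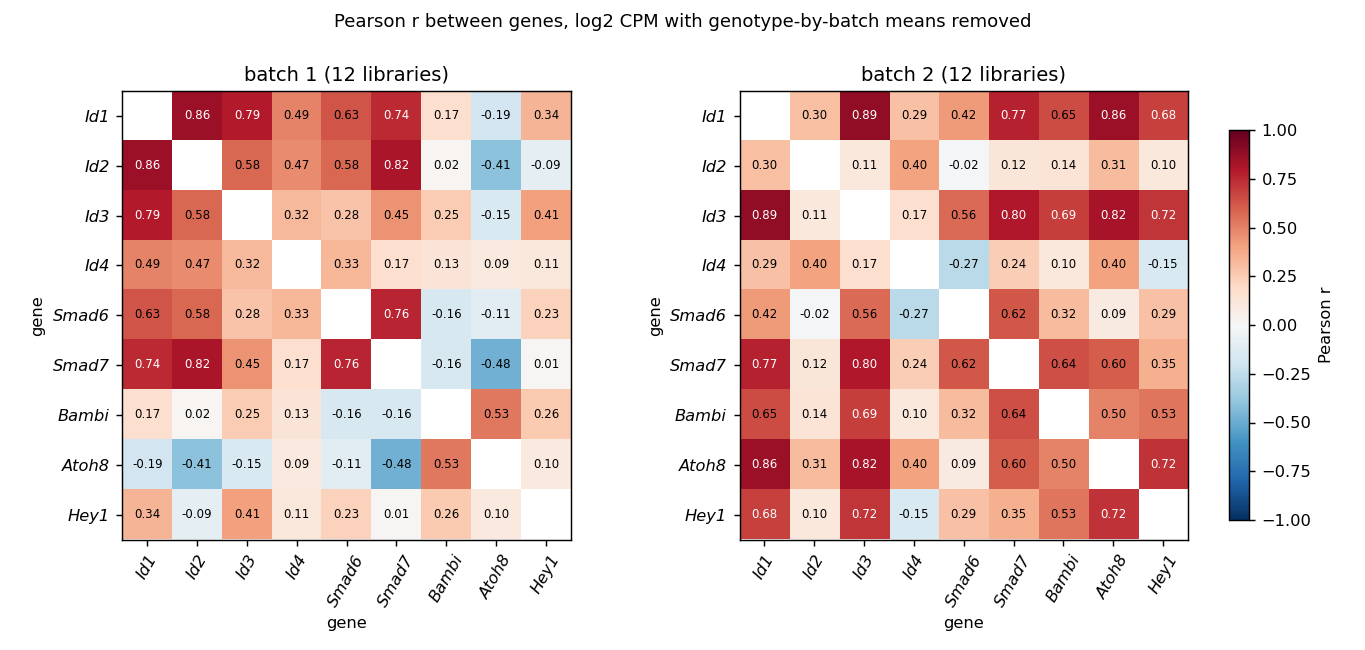
Pearson r between each pair of genes (rows and columns) within batch 1 and within batch 2, 12 libraries each, on log2 CPM with the genotype-by-batch means removed; red is positive and blue negative, and each square prints its value. Id1 with Id3 is 0.79 and 0.89, while the Atoh8 row turns from -0.19 with Id1 in batch 1 to 0.86 in batch 2.

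Markers of the cell types a kidney holds were set beside the targets, as the mean log2 CPM of each of 13 lists. Of 117 pairs of target and list, 5 passed the permutation test (Benjamini-Hochberg over the 117), and none did without the 3 doubted libraries. Id3 moved with the endothelial list: r = 0.68 (adjusted permutation p = 0.0148; rho 0.68, adjusted p = 0.0382), 0.59 in batch 1 and 0.85 in batch 2, 0.70 without the 2 farthest libraries and 0.66 without the doubted ones. The call was lost without HET 3, WT 1 or WT 3. The summed endothelial level was 516 to 568 CPM in HET and 476 to 627 in WT of batch 1, and 656 to 745 and 663 to 723 in batch 2. The endothelial score differed by 0.00 on the log2 scale between genotypes over all mice (exact permutation p = 0.925).

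Atoh8 moved against the 10 immediate early genes (Egr1 and others, induced within minutes of cell stress), with r = -0.51 (adjusted permutation p = 0.0313; rho -0.48, adjusted p = 0.166), -0.70 in batch 1 and -0.65 in batch 2, and -0.43 without the 2 farthest libraries. That call was lost without any 1 of 7 libraries. Smad7 and Id2 went with this list in batch 1 (r = 0.87 and 0.78) and not in batch 2 (-0.47 and -0.19). All 10 had counts in every library. Their summed level ran from 60.9 to 245 CPM in batch 2. In batch 1 it was 236 to 1013 CPM in HET 4, HET 5, WT 5 and WT 6 and 51.5 to 97.3 CPM in the other libraries, with none between. In these libraries Id1, Id2 and Smad7 also stood highest, as given above. The batch 1 values of r with this list, that of Atoh8 included, therefore set these libraries against the others. How r stands within either group was not tested.

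The other 3 called pairs were Id1, Id3 and Hey1 with the adipocyte list. All 7 adipocyte markers were measured, 5 of them with counts in every library, none at 0 throughout, and Cfd was the most abundant. Their summed level in batch 1 fell into separate clusters, 7 libraries at 1.51 to 8.95 CPM and 5 at 48.2 to 98.3 CPM, so no r over all 24 libraries is given. Both clusters held both genotypes: the 5 were HET 4, 5 and 6 and WT 1 and 6, of which HET 6 and WT 1 are doubted. In batch 2 the level ran from 7.07 to 134 CPM without such a gap, with a median of 33.7 in HET and 113 in WT (difference of the list score -0.89 on the log2 scale, exact permutation p = 0.340).

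In batch 1, Id3 stood at 16.6 to 25.1 CPM in the 7 libraries low in adipocyte markers and at 29.1 to 33.8 CPM in the 5 high ones, without overlap. Id1 stood at 5.51 to 10.6 and 8.62 to 15.1 CPM, and Hey1 at 0.435 to 0.999 and 0.631 to 1.16, both with overlap. Within the 7 low libraries r was -0.22 for Id1, 0.08 for Id3 and -0.17 for Hey1. Within the 12 batch 2 libraries r was 0.80 for Id1 (permutation p = 0.00234, adjusted over 18 relations 0.0421; rho 0.86, adjusted p = 0.0229), 0.58 for Id3 (adjusted p = 0.190; rho 0.70) and 0.59 for Hey1 (adjusted p = 0.159; rho 0.46). Without the 2 farthest libraries these were 0.71, 0.34 and -0.01, so the Hey1 relation in batch 2 rests on those libraries.

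The genotype values were therefore also fitted with a marker score in the model, a setting chosen after the data were seen. In batch 2 the log2 fold change of Id3 went from -0.49 to -0.36 with the adipocyte score and to -0.46 with the endothelial score. That of Id1 went from -0.41 to -0.23 and -0.36, that of Atoh8 from -0.29 to -0.14 and -0.26, and that of Hey1 from -0.23 to -0.10 and -0.23. In batch 1 Hey1 stood at -0.51 without a score, -0.56 with the adipocyte score and -0.52 with the endothelial score. With the adipocyte score removed, r of Id1 with Id3 was 0.66, of Id1 with Smad7 0.76 and of Smad6 with Smad7 0.65, all 3 still called. The other 3 called pairs lost their call in that setting: Id1 with Id2 stood at 0.57 (adjusted permutation p = 0.0622), Id3 with Smad7 at 0.51 (0.0886) and Id3 with Hey1 at 0.34 (0.494). Id1 with Smad6, not called before, was called there (r = 0.58, adjusted permutation p = 0.0359). The score was removed by 1 slope over all 24 libraries, which runs across the batch 1 clusters.

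**Figure D4:**
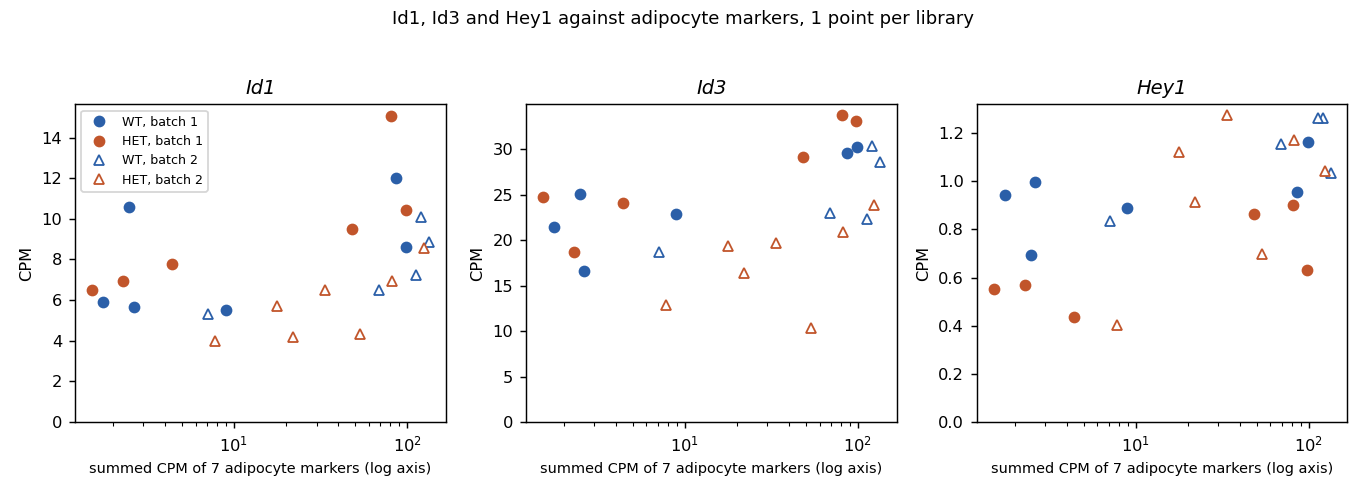
Level in CPM of Id1, Id3 and Hey1 (y axes, linear) against the summed CPM of 7 adipocyte markers (x axis, logarithmic), 1 point per library, filled circles for batch 1 and open triangles for batch 2, coloured by genotype. In batch 1 the 5 libraries at 48.2 to 98.3 CPM of adipocyte markers all lie above the other 7 for Id3, while Id1 and Hey1 overlap.

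The upstream pathway was read from fixed lists. For HET against WT over all mice, 0 of 8 tested ligands, 0 of 10 receptors and co-receptors, 0 of 4 receptor and common Smads, 0 of 16 antagonists and modulators, 0 of 7 other BMP-responsive genes, 0 of 13 Notch pathway genes and 0 of 3 E proteins were called (0% of all genes). The same counts were 0 in batch 1 and in batch 2 taken alone. The list medians over all mice lay between -0.03 and 0.06 on the log2 scale, around the 0.01 of all genes.

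Among the ligands, Bmp4 was the most abundant (13.4 TPM in batch 1, 35.8 in batch 2) and stood at a log2 fold change of -0.03, with Bmp1, a procollagen protease despite its name, at -0.10 and Bmp8a at 0.21 (adjusted p = 0.997 each). Among the receptors, Eng (endoglin, an endothelial co-receptor; 22.4 and 56.3 TPM) stood at -0.02, Bmpr1b at 0.09 and Acvr1 at 0.05. The signal carriers Smad4, Smad1 and Smad9 stood at 0.02, -0.05 and -0.19. Of the antagonists, Nbl1 had the smallest p (log2 fold change -0.67, SE 0.17, adjusted p = 0.997), Kcp, a secreted modulator of BMP signalling, stood at -0.15, and Sostdc1, the most abundant (14.5 and 37.7 TPM), stood at 0.09.

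Among other BMP-responsive genes, Tmem100, an endothelial BMP target, stood at 0.23, Runx2 at -0.09 and Gata2 at -0.03 over all mice, none called. The Notch genes bear on Hey1, which Notch also drives; Notch4 stood at 0.07, Notch2 at -0.05 and Rbpj, the DNA-binding partner of Notch, at -0.01. Tcf12 and Tcf3, E proteins that Id proteins bind, stood at -0.03 and -0.07.

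The genes that followed each target most closely, by Pearson r of the same residuals over 24 libraries among at least 13263 named genes of at least 1 CPM, differed from target to target. For Id1 they were Id3, Dgat2 (0.82) and Zfp69 (0.82); Dgat2 makes triglyceride. For Id3 they were Tnxb (0.87), Fbln5 (0.86) and Kcnd3 (0.85), the first pair being matrix genes. For Atoh8 they were Fam43a (0.85), Fhod1 (0.83) and Sox18 (0.81), the last of which belongs to the endothelial list. For Smad7 they included Plekhg5 (0.87) and Cluh (0.84), and for Smad6 Irf2bpl (0.80), Srcin1 (0.79) and Vps37d (0.78).

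For Id2 the closest were Pcbp1 (0.80), Coro1c (0.79) and Ccdc107 (0.78), and for Hey1 Zfp385a (0.80), Zfp395 (0.75) and Tmc4 (0.74). Bambi and Id4 had the loosest followers, with Dtnb (0.73), Adssl1 (0.71) and Gucy1a2 (0.70) for Bambi and Actr10 (0.70), Nsun3 (0.69) and Tfdp1 (0.67) for Id4. Within batch 1 the 3 genes of Id4 had r = 0.82, 0.83 and 0.82, and within batch 2 they had 0.56, 0.39 and 0.45, a difference that was not tested. These are the highest of many values and are given as a description.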

How the data were processed

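Kidney RNA of 24 mice was extracted and made into mRNA libraries with 1 kit each, per the labels' protocols. The authors deposited 1 table of 55487 genes that gives expected counts, TPM and FPKM for each library. The submitters' processing notes name GRCm38 (mm10) and the programs STAR, fastp and featureCounts; versions, strand setting and annotation are not stated in the sources at hand. Of the genes in a library, 11.8% to 15.4% had a fractional value in the expected counts the authors deposited, and all were rounded. Coordinates are from GENCODE M21, which held 55227 of the identifiers. The title of HET replicate 8 carries an animal number unlike that in its library name; its column was matched by the latter. Replicates are numbered in deposition order and pair nothing.

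Genes were kept by filterByExpr (minimum count 10), scaled by TMM and tested with edgeR 4.0.16 in R 4.3.3 (robust quasi-likelihood test), and p-values were adjusted by Benjamini-Hochberg over all genes with a threshold of 0.05. Batch was a covariate over all mice. Intervals are at 95%. Single genes were compared by exact two-sided permutation of genotype within batch, and the smallest p these allow is 0.00216 in batch 1 and 0.00126 in batch 2. Correlations used log2 CPM (prior count 2) with genotype-by-batch means removed and 100000 permutations in scipy 1.17.1. Alternatives were DESeq2 1.42.0, limma 3.58.1 voom, other scaling, no filter, no batch covariate, limma on the deposited TPM as log2(TPM + 1) or log2(TPM + 0.1) and on the deposited FPKM as log2(FPKM + 1), and libraries left out. The tests were tried on simulated data.

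The 9 genes and all lists were chosen with earlier results of these data known. Named genes are the 9, Nbl1 and Htr6; in each pathway list the 2 genes of smallest p over all mice and the 1 of highest TPM; and the 3 genes of highest r with each target, gene models named Gm or Rik left out. One gene that this rule names is not reported here.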

Additional observations from a re-analysis of the deposited data

Results flagged for a closer look

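In 1 of the 36 groups looked at (9 genes in 4 groups of 5 to 7 libraries) a library stood apart from the rest by its gap to the nearest value. Chance alone marks about 1 group in 20. The library was WT replicate 9 of batch 2 for Smad6, at 3.87 CPM, while the other 4 WT libraries of that batch held 5.56 to 5.90 CPM. The same library held the lowest Id2, Smad7 and Bambi levels of its group, at 132, 19.0 and 2.60 CPM. Its Hey1 level, 1.15 CPM, was the group's median. The cause was not tested.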

How the results depend on the processing

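No paired analysis was possible because the labels give no replicate numbers shared between HET and WT. None of the 9 genes was called for HET against WT, over all mice or within a batch, nor for the interaction or the slope on Nbl1, under any alternative run. Counts over all genes moved as follows, and the cause was not tested. For HET against WT over all mice 2 genes were called without the 3 doubted libraries, which the levels of Nbl1 and Htr6 picked out; in batch 1 it was 1 with DESeq2, 1 with no filter and 2 without the doubted libraries; in batch 2 it was 27 with DESeq2 and 3 with no filter. For the slope on Nbl1 it was 21 with DESeq2, 1 with limma voom, 8 with no filter and 1 without the doubted libraries. Batch 2 against batch 1 called 5 of the 9 genes with DESeq2. Of the 27 exact tests, 3 gave a p under 0.05 with all libraries and 2 without the doubted ones. On log2(TPM + 1), Id4 in batch 2 joined those 3 (mean difference -0.26, exact permutation p = 0.0303). Smad7 in batch 2 stood at -0.29 in that setting (exact permutation p = 0.0505). Called target pairs numbered 25 on log2(TPM + 1) and 3 with the endothelial score removed; called target-by-marker pairs numbered 45 on log2(TPM + 1) and 0 without the doubted libraries.

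Some values near 0 changed sign. For HET against WT over all mice these were Id2 with the adipocyte score (0.0023), Bmpr1b on FPKM (-0.00036), Acvr1 on log2(TPM + 1), log2(TPM + 0.1) and FPKM (-0.037, -0.035 and -0.041), Smad4 likewise (-0.021, -0.021 and -0.035) and Eng with no batch covariate (0.0049). Without the doubted libraries Smad6 in batch 1 went to -0.044 (mean difference -0.051), Smad7 to -0.034 (-0.036), the mean difference of Bambi in batch 1 to 0.0022, and Id2 in batch 2 against batch 1 to -0.018. The Bambi interaction was 0.017 and 0.019 with the adipocyte and endothelial scores, and r with the adipocyte score within the 7 low libraries was -0.22 for Id1 and -0.17 for Hey1.

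Leaving out each library gave 0 to 0 calls for HET against WT over all mice, in batch 1 and for the interaction, 1 to 3 in batch 2, 11299 to 11688 for batch (2 to 5 of the 9 genes), 0 to 1 for the slope, 2 to 4 exact tests, 3 to 8 target pairs and 2 to 7 target-by-marker pairs. Ranges that crossed 0 were, over all mice, Id2 (-0.040 to 0.019), Id4 (-0.072 to 0.0095), Smad6 (-0.098 to 0.0052), Smad7 (-0.059 to 0.010) and Atoh8 (-0.073 to 0.031); in batch 1, Smad6 (-0.053 to 0.11) and Smad7 (-0.025 to 0.090); the Bambi interaction (-0.14 to 0.081); Id2 for batch (-0.0033 to 0.056); and the slopes of Id2 (-0.11 to 0.036) and Id4 (-0.21 to 0.0069). The mean differences that crossed 0 were, over both batches, Id2 (-0.026 to 0.029), Id4 (-0.065 to 0.012), Smad7 (-0.050 to 0.0040) and Atoh8 (-0.079 to 0.017), and in batch 1 Smad6 (-0.044 to 0.097) and Smad7 (-0.024 to 0.087). Hey1, with 12 to 60 counts per library, is the gene whose values depth limits most.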
